A study of Mus musculus with 2 samples.

Results

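Of 12755 barcodes in 2 single-cell libraries of mouse liver endothelium, 1253 held at least 500 but fewer than 1500 UMIs and had less than 10% of them from the 13 mitochondrially encoded genes. A UMI (unique molecular identifier) marks 1 captured mRNA molecule and a barcode marks 1 droplet. These low-count, low-mitochondrial barcodes, here called low-mt barcodes, were chosen by their UMI count and mitochondrial share alone, so both values describe the choice. The control library had 197 of them among 5664 barcodes, and the Maf LSEC-KO library had 1056 among 7091. The study removed everything below 1500 UMIs before its own analysis, so none of these barcodes entered it.

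Maf LSEC-KO mice carried the *Clec4g-iCre* transgene and floxed *Maf* on both alleles, and Cre driven by the *Clec4g* promoter acts selectively in liver sinusoidal endothelial cells (LSECs). Controls were littermates without the transgene and with 1 or both *Maf* alleles floxed, which the labels call WT. Each library came from the pooled livers of 3 mice after collagenase digestion, a Nycodenz gradient and magnetic selection for CD146, an endothelial surface protein. The age of the pooled mice is not given in the sources used here. With 1 library per genotype there were no replicates, so no difference between the genotypes could be tested. Ranges in parentheses are exact 95% intervals and cover counting error only.

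A droplet with few UMIs can hold a small cell, a platelet, a fragment of a cell or only RNA that was free in the suspension. Mitochondrial mRNA stays inside the mitochondria, so damaged cells that have lost their cytoplasm show a high mitochondrial share. Red blood cells and platelets have no nucleus. Red blood cell RNA is mostly hemoglobin mRNA, whereas platelets carry mRNA of their granule proteins, such as *Ppbp* and *Pf4*, and of their surface receptors. In the liver, sinusoidal endothelium is fenestrated and rich in scavenger receptors, and Kupffer cells, the resident macrophages, lie within the same sinusoids.

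The low-mt barcodes were 3.48% (3.02 to 3.99) of all control barcodes and 14.9% (14.1 to 15.7) of all Maf LSEC-KO barcodes. Among the barcodes with fewer than 1500 UMIs they were 29.98% (26.5 to 33.6) of 657 in the control and 67.5% (65.1 to 69.8) of 1565 in the Maf LSEC-KO library. The gap lay mainly below 1000 UMIs, where the shares were 24.1% and 72.5%, and from 1000 UMIs upwards they were 41.4% and 48.3%. Together they held 189282 of 47681895 control UMIs (0.397%) and 757081 of 89872764 Maf LSEC-KO UMIs (0.842%). The number of barcodes above the 10% limit in the same UMI range was similar, 460 control and 509 Maf LSEC-KO barcodes. Of the barcode sequences, 10 occurred in both libraries, and 1 of these was a low-mt barcode, in the Maf LSEC-KO library.

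The 2 libraries differed in where the low-mt barcodes lay within the UMI range. In the Maf LSEC-KO library 464 of 1056 had fewer than 600 UMIs, 222 had 600 to under 700 and 107 had 700 to under 800, and each bin of 100 UMIs above 1200 held between 21 and 28. They made up 86.7% of all Maf LSEC-KO barcodes below 600 UMIs. The control library had no such crowding near the lower limit, with 33 low-mt barcodes below 600 UMIs (23.9% of all barcodes there) and between 11 and 27 in each other bin of 100 UMIs. Their median UMI count was 943 in control and 617 in Maf LSEC-KO barcodes. At the mitochondrial limit the highest value inside was 9.92% in control and 9.99% in Maf LSEC-KO barcodes, and the lowest value outside was 10.17% and 10.12%, with 15 and 21 barcodes within 1 percentage point of the limit.

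**Figure D1:**
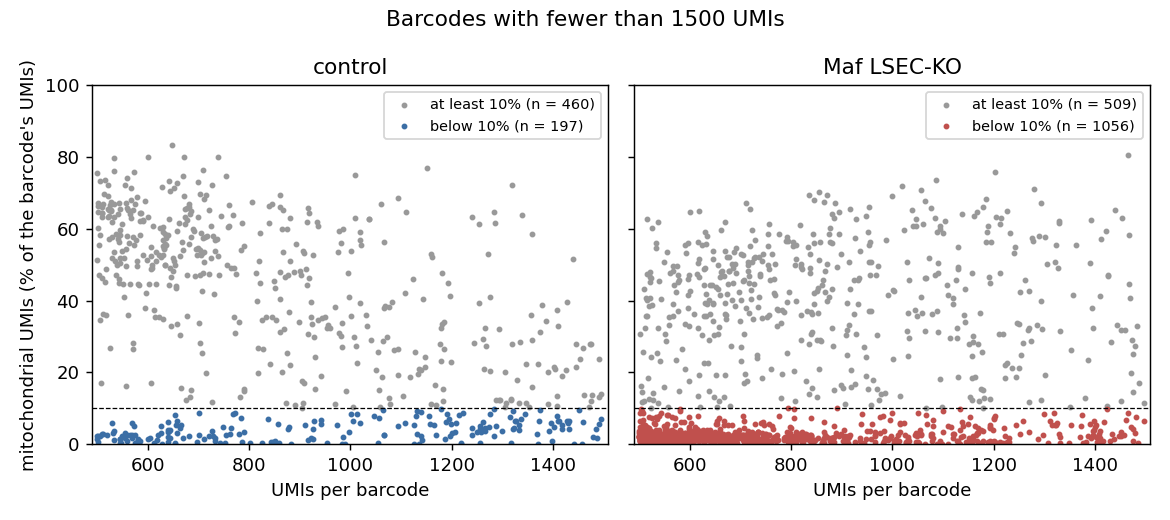
Mitochondrial share (percent of the barcode's UMIs) against UMI count for every barcode with fewer than 1500 UMIs, in the control (left) and Maf LSEC-KO library (right). Each point is 1 barcode, coloured below the dashed line at 10%. The Maf LSEC-KO library shows a dense band of barcodes near 500 UMIs and below 5%, whereas the control points spread over the whole UMI range.

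The median mitochondrial share of the low-mt barcodes was 3.41% in control and 2.05% in Maf LSEC-KO barcodes, with 4.30% and 4.09% in barcodes of at least 1500 UMIs. With the UMIs of each barcode randomly reduced to 500, the low-mt barcodes held a median of 362 genes (control) and 370 genes (Maf LSEC-KO). Barcodes of at least 1500 UMIs held 370 and 369 genes at this depth, and barcodes of the same range above the mitochondrial limit held 193 and 221. The 500 UMIs include mitochondrial ones, whose median share above the limit was 49.0% (control) and 41.8% (Maf LSEC-KO). The lower gene counts there thus follow in part from the choice, and shares of barcodes with marker genes at 500 UMIs are affected likewise. The nuclear-retained RNAs *Malat1*, *Neat1* and *Kcnq1ot1* made up a median of 0.169% of the UMIs in control low-mt barcodes. In Maf LSEC-KO ones the median was 0.551%, and barcodes of at least 1500 UMIs had 1.99% and 2.01%. Low-mt barcodes thus had nearly as many genes per 500 UMIs as high-count barcodes and smaller median shares of nuclear-retained RNA. Ribosomal protein genes took a median of 10.7% and 15.3% of their UMIs, where barcodes of at least 1500 UMIs had 7.32% and 15.8%.

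The low-mt barcodes of both libraries were clustered together, and a cluster was given a cell type name with the ending -like only where at least 3 markers of that type were among its 50 leading genes and at least 1 among its 10 leading genes. Of 6 clusters, 4 received a name: macrophage-like (109 barcodes), platelet-like (56), hepatocyte-like (29) and neutrophil-like (14). The 2 largest clusters received none. Cluster 1 held 877 barcodes, 859 of them from the Maf LSEC-KO library, and cluster 2 held 168 barcodes, 150 of them from the control. The clusters without a name together made up 85.3% of the control low-mt barcodes (79.5 to 89.9) and 83.0% of the Maf LSEC-KO ones (80.6 to 85.3). Their defining genes, led by *Ly6c1*, *Uhrf1* and *Cd34* in cluster 1 and *Dnase1l3*, *Col13a1* and *Fcgr2b* in cluster 2, also differed between the genotypes, so the sizes of clusters 1 and 2 were not compared. The clusters were drawn and named from these same counts, so marker levels within a named cluster describe that choice. No doublet caller was run on these barcodes.

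**Figure D2:**
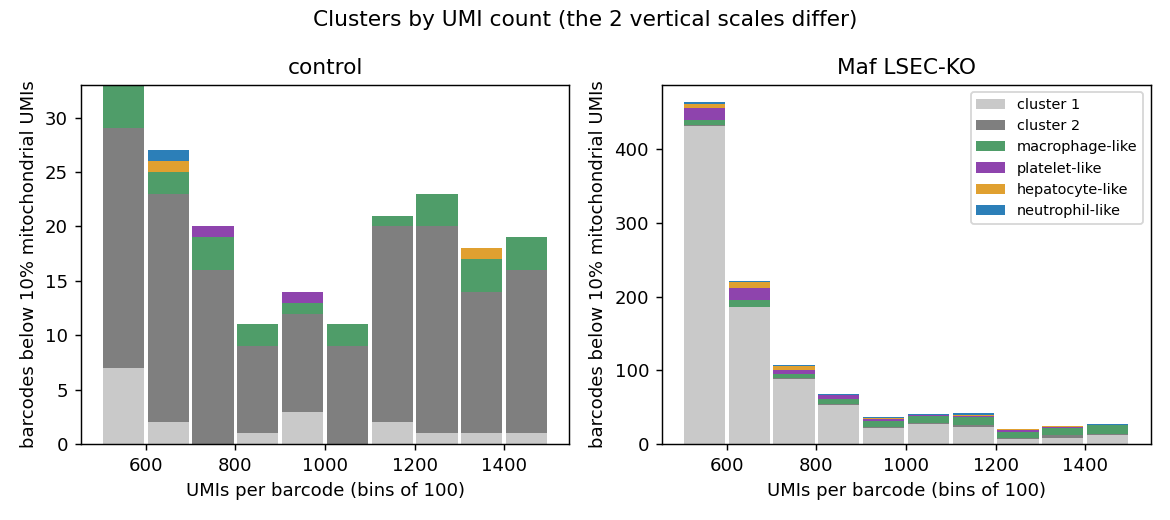
Number of low-mt barcodes per bin of 100 UMIs, stacked by cluster, in the control (left) and Maf LSEC-KO library (right), on different vertical scales. Cluster 1 fills the tall bins below 700 UMIs in the Maf LSEC-KO library, whereas macrophage-like barcodes take a larger share of the bins above 1000 UMIs.

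Macrophage-like barcodes carried the complement genes *C1qa*, *C1qb* and *C1qc*, which are neighbours on chromosome 4, and the Kupffer cell genes *Clec4f*, *Cd5l* and *Vsig4*. They numbered 24 in the control, 12.2% (7.96 to 17.6) of the low-mt barcodes, and 85 in the Maf LSEC-KO library, 8.05% (6.48 to 9.86). As a share of all barcodes they were 0.424% (0.272 to 0.630) and 1.20% (0.959 to 1.48), so the order of the libraries depends on the denominator. A macrophage-like barcode held a median of 19.5 UMIs (6 to 77) of the 11 macrophage genes in the control library, where a Maf LSEC-KO one held 20 (0 to 89). Levels are given as CPM, a count scaled to 1000000 UMIs after those of mitochondrial and ribosomal protein genes were set aside. The macrophage list stood at 33295 CPM in control and 29466 CPM in Maf LSEC-KO macrophage-like barcodes. Among the genes of the list, *C1qa* stood at 7645 (6478 to 8961) and 6424 (5859 to 7030) CPM and *Clec4f* stood at 4376 (3505 to 5397) and 4879 (4388 to 5410) CPM. *Marco*, a scavenger receptor, had 1 UMI in control and 30 in Maf LSEC-KO macrophage-like barcodes, 50.3 (1.27 to 280) and 407 (274 to 580) CPM. *Maf*, which macrophages also express, stood at 1056 (654 to 1614) and 705 (526 to 924) CPM there. Other lists differed within these barcodes, with log2 ratios, Maf LSEC-KO over control, of −0.61 (−0.90 to −0.31) for monocyte genes, 0.60 (0.21 to 1.02) for hepatocyte genes and 1.93 (0.90 to 3.17) for immediate early and heat shock genes.

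In the Maf LSEC-KO library the macrophage-like share was higher at the upper end of the UMI range. It was 3.90% (2.73 to 5.38) of 898 low-mt barcodes below 1000 UMIs and 31.6% (24.5 to 39.5) of 158 from 1000 UMIs upwards. In the control it was 11.4% (6.05 to 19.1) of 105 and 13.0% (6.93 to 21.7) of 92. The order of the libraries in the macrophage-like share was therefore opposite in the lower and the upper part of the range, and the lower part holds most Maf LSEC-KO barcodes. CD146 selection acts on all these shares, and its part in them was not tested.

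Platelet-like barcodes numbered 2 in the control, 1.02% (0.123 to 3.62) of the low-mt barcodes, and 54 in the Maf LSEC-KO library, 5.11% (3.86 to 6.62). Of all barcodes these were 0.0353% (0.00428 to 0.127) and 0.762% (0.573 to 0.992). Their leading genes included *Nrgn*, *Ppbp*, *Pf4*, *Gp9* and *Itga2b*, and the hemoglobin gene *Hba-a1*. *Ppbp* and *Pf4* encode chemokines of the platelet granules and are adjacent on chromosome 5 of mm10 (chr5:90768518-90770063 and chr5:90772435-90773383). *Gp9* and *Itga2b* encode parts of the platelet receptors for von Willebrand factor and fibrinogen.

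The platelet genes were concentrated in few barcodes, which in part follows from a cluster formed and named from these same counts. Of 177 *Ppbp* UMIs in Maf LSEC-KO low-mt barcodes, 170 lay in the 54 platelet-like barcodes, and of 367 *Pf4* UMIs 317 did. Both genes were found together in 44 of the 54. The control had 13 *Ppbp* and 32 *Pf4* UMIs, of which 13 and 27 lay in its 2 platelet-like barcodes. A Maf LSEC-KO platelet-like barcode held a median of 17.0 UMIs (1 to 45) from a median of 6 (1 to 11) of the 13 platelet genes, and the 2 control ones held 11 and 66 UMIs from 6 and 10 genes. No UMI of the platelet list was found in 901 of 1056 Maf LSEC-KO and 180 of 197 control low-mt barcodes. A *Ppbp* UMI at a depth of 500 UMIs was found in 79.6% (66.5 to 89.4) of Maf LSEC-KO platelet-like and 0.349% (0.0721 to 1.02) of cluster 1 barcodes.

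Barcodes with platelet markers were more frequent among the low-mt barcodes than in the rest of the library. With 1 rule on marker genes per barcode and all barcodes thinned to 500 UMIs, platelet barcodes were 35 of 1056 Maf LSEC-KO low-mt barcodes, 3.31% (2.32 to 4.58). They were 9 of 5526 Maf LSEC-KO barcodes with at least 1500 UMIs, 0.163% (0.0745 to 0.309), and 2 of 509 above the mitochondrial limit. In the control they were 1 of 197, 1 of 5007 and 0 of 460. Barcodes above the mitochondrial limit have fewer UMIs of other genes at this depth, which lowers their shares.

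**Figure D3:**
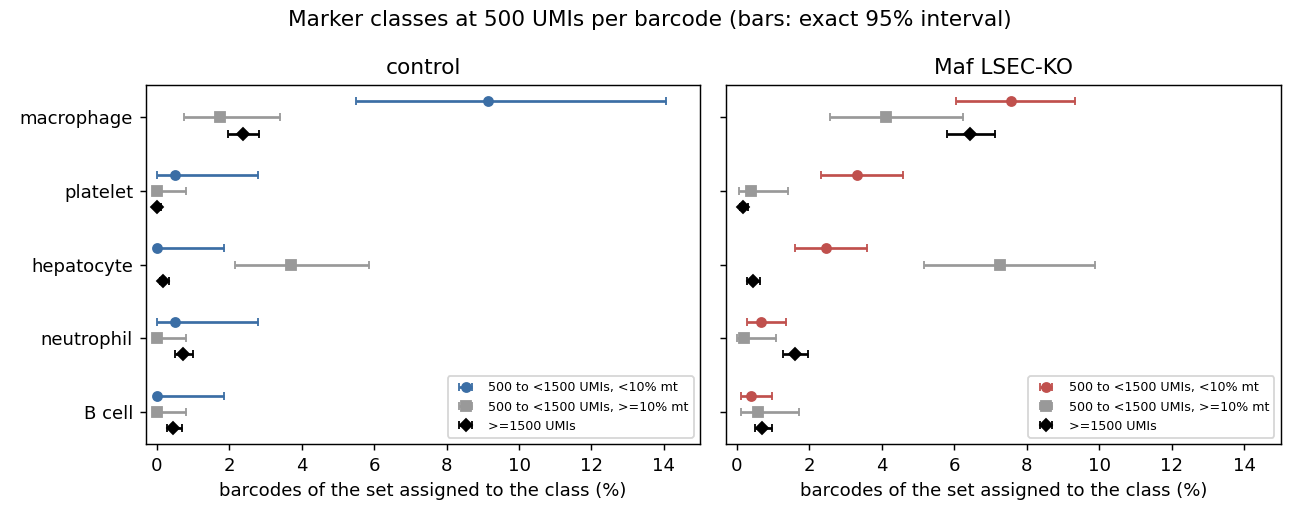
Percent of barcodes assigned to a cell class by marker genes after thinning to 500 UMIs, for low-mt barcodes (circles), barcodes of the same UMI range above the mitochondrial limit (squares) and barcodes of at least 1500 UMIs (diamonds), in the control (left) and Maf LSEC-KO library (right), with exact 95% intervals. Platelet barcodes stand out in the Maf LSEC-KO low-mt set, 3.31% against 0.163% among barcodes of at least 1500 UMIs.

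No low-mt barcode was a red blood cell by its hemoglobin content. The 4 adult hemoglobin genes *Hba-a1*, *Hba-a2*, *Hbb-bs* and *Hbb-bt* reached at most 1.02% of a control barcode's UMIs (8 UMIs) and at most 4.47% of a Maf LSEC-KO barcode's UMIs (29 UMIs). Barcodes with at least 50% hemoglobin UMIs were 0 of 197 and 0 of 1056, with exact upper limits of 1.86% and 0.349%. Such barcodes were found only with at least 1500 UMIs, 3 in control and 1 in Maf LSEC-KO barcodes. A hemoglobin UMI was present in 8 of 197 control low-mt barcodes, 4.06% (1.77 to 7.84), and in 111 of 1056 Maf LSEC-KO ones, 10.5% (8.73 to 12.5). At 500 UMIs these shares were 4.06% and 8.90% (7.25 to 10.8), against 0.759% and 0.760% in barcodes of at least 1500 UMIs. Above the mitochondrial limit, where fewer of the 500 UMIs come from other genes, they were 3.48% and 3.93%. No UMI of the red cell membrane gene *Slc4a1* or of the erythroid factors *Gata1* and *Klf1* was found in any low-mt barcode, and *Alas2*, an enzyme of heme synthesis in red cells, had 8 UMIs in 4 Maf LSEC-KO barcodes. Other genes of these lists were present. The 15 erythroid genes, hemoglobin genes included, held 122 control and 517 Maf LSEC-KO UMIs (log2 ratio 0.12, −0.17 to 0.41). The 10 erythroid precursor genes, *Gata1* and *Klf1* among them, held 5 and 20.

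Of 227 hemoglobin UMIs in Maf LSEC-KO low-mt barcodes, 132 were *Hba-a1* UMIs in platelet-like barcodes, and of 18 in control ones 8 were. In the Maf LSEC-KO library 132 of 153 *Hba-a1* UMIs lay in 37 of the 54 platelet-like barcodes, whereas only 5 of 45 *Hbb-bs* UMIs lay in that cluster. In the control all 8 *Hba-a1* UMIs lay in 1 of the 2 platelet-like barcodes, which together had no *Hbb-bs* UMI. *Hba-a1* made up 96.4% (91.7 to 98.8) of the *Hba-a1* and *Hbb-bs* UMIs of Maf LSEC-KO platelet-like barcodes, 34.5% (22.2 to 48.6) of those of cluster 1 and 30.4% (29.9 to 31.0) of those of barcodes with at least 1500 UMIs. The paralog *Hba-a2* had 2 UMIs in the Maf LSEC-KO platelet-like barcodes. *Hba-a1* was 98.5% (94.7 to 99.8) of the alpha-globin UMIs in Maf LSEC-KO platelet-like barcodes and 57.8% (57.0 to 58.6) in barcodes with at least 1500 UMIs. The 2 alpha-globin genes lie on chromosome 11 (chr11:32283511-32284465 and chr11:32296489-32297298) and are nearly identical, so the split of reads between them is uncertain. The interval of the *Hba-a1* share in Maf LSEC-KO platelet-like barcodes did not overlap that of cluster 1 or of high-count barcodes.

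**Figure D4:**
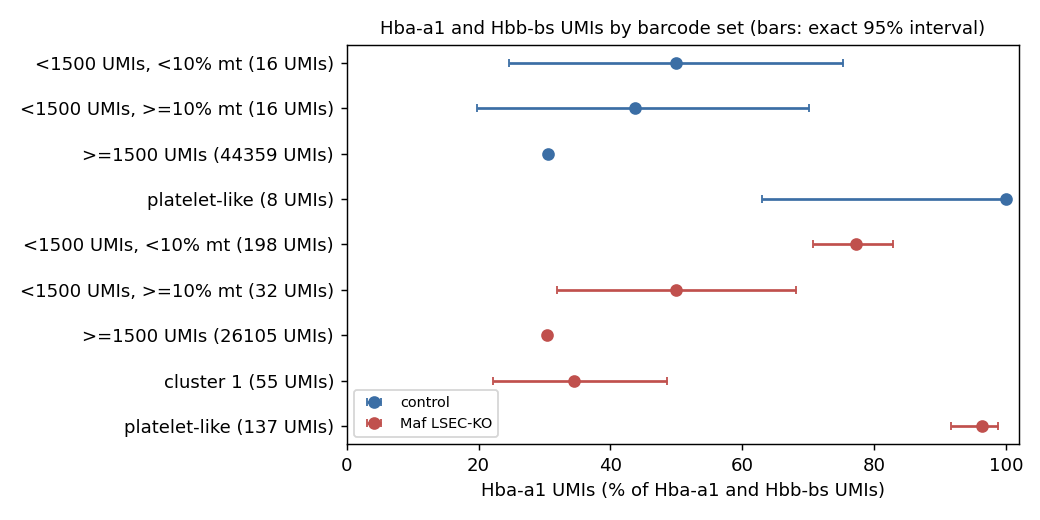
Share of *Hba-a1* among *Hba-a1* and *Hbb-bs* UMIs (percent, exact 95% intervals) for each barcode set with at least 8 such UMIs, control in blue and Maf LSEC-KO in red, with the number of UMIs in brackets. Platelet-like barcodes of both libraries lie near the right edge, at 100% and 96.4%, and barcodes of at least 1500 UMIs at 30.5% and 30.4%.

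Neutrophil-like barcodes numbered 1 in the control (0.508%, 0.0129 to 2.80) and 13 in the Maf LSEC-KO library (1.23%, 0.657 to 2.10), and these intervals overlap. They were led by *S100a9* and *S100a8*, the subunits of calprotectin, which are close neighbours on chromosome 3, and by the inflammatory genes *Cxcl2*, *Ccr1* and *Il1b*. The 13 Maf LSEC-KO barcodes held 418 of the 562 *S100a8* and 570 of the 756 *S100a9* UMIs of that library's low-mt barcodes. Their neutrophil list UMIs ranged from 0 to 267 with a median of 45.0, and 11 of the 13 carried both genes. *Camp*, *Ngp* and *Ltf*, genes of the specific granules that are made in bone marrow, had no UMI in them. The control neutrophil-like barcode held 7 UMIs of the list. Of the 13 Maf LSEC-KO ones, the marker rule per barcode without thinning assigned 7 to neutrophils and 4 to endothelium, and gave 2 no class.

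*S100a8* and *S100a9* were also found outside the neutrophil-like cluster. In cluster 1 of the Maf LSEC-KO library 232 of 859 barcodes carried a UMI of either gene, and 20 carried both. At 500 UMIs an *S100a8* UMI was found in 10.7% (8.72 to 13.0) of Maf LSEC-KO cluster 1 barcodes, 7.41% (2.06 to 17.9) of platelet-like and 3.53% (0.734 to 9.97) of macrophage-like ones, in 2.42% (2.04 to 2.87) of Maf LSEC-KO barcodes with at least 1500 UMIs, and in 2.54% (0.829 to 5.82) of control low-mt barcodes. The cluster 1 share lay above those of the platelet-like and macrophage-like barcodes, with intervals that overlap. In the neutrophil-like cluster the share was 84.6% (54.6 to 98.1).

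B cell genes were found in few low-mt barcodes. *Cd79a*, a signalling chain of the B cell receptor, had 1 UMI in control and 14 in Maf LSEC-KO barcodes, in 11 barcodes, and *Cd79b* had 1 and 16. Both genes were found together in 2 low-mt barcodes, both of the Maf LSEC-KO library and in cluster 2. By the marker rule per barcode, without thinning, 4 Maf LSEC-KO and 0 control low-mt barcodes were B cells, and 3 of the 4 lay among the 18 Maf LSEC-KO barcodes of cluster 2. The B cell list held 6 control and 204 Maf LSEC-KO UMIs. *Fcer2a* alone gave 0 and 81 of them, and *Ms4a1* gave 1 and 3. No low-mt barcode was assigned to T or NK cells, monocytes, dendritic cells, stellate cells or cholangiocytes.

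Hepatocyte-like barcodes numbered 2 in the control, 1.02% (0.123 to 3.62), and 27 in the Maf LSEC-KO library, 2.56% (1.69 to 3.70), and these intervals overlap. Their leading genes were *Fabp1*, *Car3*, *Arg1* and *Bhmt*, which encode a fatty acid binding protein, a carbonic anhydrase, and enzymes of the urea and methionine cycles. *Arg1* had 24 UMIs in the 27 Maf LSEC-KO barcodes and 4 in the 2 control ones, and 0 in every other low-mt barcode. By the marker rule without thinning, however, both control hepatocyte-like barcodes were endothelial. They held 20975 CPM of endothelial and 8020 CPM of hepatocyte genes, where the Maf LSEC-KO ones held 6298 and 31141 CPM. *Alb*, the albumin gene, was less restricted, with 95 of 216 Maf LSEC-KO UMIs in the hepatocyte-like barcodes. Their median mitochondrial share was 1.28% in the Maf LSEC-KO library, the lowest of the named clusters there. At 500 UMIs the marker rule found hepatocyte barcodes in 0 of 197 control and 26 of 1056 Maf LSEC-KO low-mt barcodes (2.46%, 1.61 to 3.59). They were more frequent above the mitochondrial limit, 3.70% of control barcodes (2.17 to 5.85) and 7.27% of Maf LSEC-KO barcodes (5.17 to 9.88), and rare among barcodes of at least 1500 UMIs, 0.180% and 0.434%.

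Endothelial RNA was found in nearly every low-mt barcode, since 1 control and 7 Maf LSEC-KO barcodes had no UMI of the 18 endothelial genes. *Pecam1* encodes the endothelial junction protein CD31 and *Clec4g* a lectin of LSECs, and a UMI of either was found in 165 of 197 control and 667 of 1056 Maf LSEC-KO low-mt barcodes. At 500 UMIs *Pecam1* was detected in 17.3% of control low-mt barcodes (12.3 to 23.3) and 19.1% of Maf LSEC-KO ones (16.8 to 21.6), against 23.8% and 23.6% of barcodes with at least 1500 UMIs. *Clec4g* was detected at this depth in 65.5% of control low-mt barcodes (58.4 to 72.1) and 42.2% of Maf LSEC-KO ones (39.2 to 45.3), and in 15.3% (8.40 to 24.7) of Maf LSEC-KO macrophage-like ones. By the marker rule without thinning, 170 control barcodes (86.3%) and 834 Maf LSEC-KO barcodes (79.0%) were endothelial, and 148 of the control ones lay in cluster 2 and 803 of the Maf LSEC-KO ones in cluster 1. By this rule most barcodes of clusters 1 and 2 were endothelial, although their leading genes, set against the other low-mt barcodes, gave them no name. The endothelial list is the longest of the cell type lists, and the rule makes no allowance for list size. Maf LSEC-KO macrophage-like, platelet-like and hepatocyte-like barcodes also held a median of 3 endothelial genes, against 6 in cluster 1. The part of free endothelial RNA in these classes was not tested.

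Cluster 1 of the Maf LSEC-KO library resembled the pooled high-count barcodes of its own library. Across 4696 genes of at least 50 CPM in either set, Pearson's r of log2(CPM + 10) between the 2 profiles was 0.90, and only 111 genes were at least 2-fold higher and 79 at least 2-fold lower in cluster 1. With the control barcodes of at least 1500 UMIs, r was 0.73. Cluster 2 of the control had r = 0.85 with control and r = 0.73 with Maf LSEC-KO barcodes of at least 1500 UMIs. These correlations are across genes, which are not independent replicates. Macrophage-like Maf LSEC-KO barcodes had r = 0.44 and platelet-like ones r = 0.35 with the high-count barcodes of their library. The sets were not matched in size. With the high-count barcodes of their own library, the 18 Maf LSEC-KO barcodes of cluster 2 had r = 0.32. The 18 control barcodes of cluster 1 had r = 0.30. The part of set size in these values was not tested.

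Barcodes of cluster 1 also differed little from each other. At 500 UMIs the variance of a gene over the 859 Maf LSEC-KO barcodes of cluster 1 was a median of 1.07 times its mean, where 1 is the value for random sampling from 1 shared profile, and 3 of 210 genes (1.43%) exceeded 1.5. Among 4192 Maf LSEC-KO barcodes of at least 1500 UMIs that were endothelial by markers the median was 1.08, with 3.65% of genes above 1.5. Cluster 2 of the control had a median of 1.13, with 9.06% of genes above 1.5.

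*Maf*, the targeted gene, had 294 UMIs in control and 116 in Maf LSEC-KO low-mt barcodes, or 1848 (1643 to 2072) and 186 (154 to 224) CPM. Maf LSEC-KO over control, the log2 ratio was −3.31 (−3.63 to −3.0). In the clusters without a name it was −3.93 (−4.35 to −3.53), with 271 and 64 UMIs, and in barcodes of at least 1500 UMIs −4.43 (−4.45 to −4.40). Of the 116 Maf LSEC-KO UMIs, 52 lay in macrophage-like barcodes. The sources used here do not state how the deletion sits against the 3′ end that was sequenced.

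Genes with at least 50 CPM in either library were then compared between the genotypes by their ratio, and a gene was counted where it differed by at least 2-fold. In all low-mt barcodes 503 of 4895 genes were higher (10.3%) and 491 were lower (10.0%) in the Maf LSEC-KO library, and the median log2 ratio of all 4895 genes was −0.09. In the clusters without a name 678 of 5009 genes were higher (13.5%) and 553 were lower (11.0%), with a median of −0.05. None of these counts rests on a test, since no replicates exist.

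Sinusoidal endothelial genes were lower and continuous endothelial genes higher in Maf LSEC-KO low-mt barcodes. Both lists hold genes whose direction the study had already reported in LSECs of Maf LSEC-KO mice. Examples are *Cd34* and *Ly6c1* (higher) and *Stab2* and *Dnase1l3* (lower). The list counts and medians below therefore describe these barcodes and are no independent support for that direction. The sinusoidal list held 17964 CPM in the control and 7154 CPM in the Maf LSEC-KO library, a log2 ratio of −1.33 (−1.40 to −1.26). Of its 18 genes, *Maf* among them, 17 were measured, of which 11 were at least 2-fold lower and 0 higher, with a median of −1.35. *Dnase1l3*, a secreted DNase, had 368 and 64 UMIs, or 2313 and 103 CPM (log2 ratio −4.49, −4.90 to −4.11). The Fc receptor gene *Fcgr2b* had 256 and 91 UMIs (−3.46, −3.82 to −3.11), and the scavenger receptor gene *Stab2* had 193 and 109 (−2.79, −3.14 to −2.45). *Stab1*, its paralog, had 194 and 517 UMIs (−0.55, −0.79 to −0.31), a smaller difference than in barcodes of at least 1500 UMIs (−1.27, −1.29 to −1.25). *Cd36*, a fatty acid transporter on the same list, went the other way, with 92 and 697 UMIs (0.95, 0.64 to 1.28).

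The continuous endothelial list held 2269 CPM in the control and 5958 CPM in the Maf LSEC-KO library, a log2 ratio of 1.39 (1.24 to 1.55). Of its 16 genes 12 were measured, of which 7 were at least 2-fold higher and 0 lower, with a median of 1.52. *Cd34*, a sialomucin of capillary endothelium, had 1 and 165 UMIs, or 6.29 and 265 CPM. *Ly6c1* had 4 and 310 UMIs (log2 ratio 4.31, 2.94 to 6.19), *Vwf*, the von Willebrand factor gene, 3 and 104 (3.15, 1.56 to 5.45), and *Ly6a* 210 and 2038 (1.31, 1.10 to 1.52). Restricted to the clusters without a name, 10 of 17 sinusoidal genes were at least 2-fold lower and 1, *Cd36*, higher (1.07, 0.74 to 1.41), and 8 of 13 continuous genes were higher and 0 lower. The list of 18 endothelial genes held 21811 and 13469 CPM (−0.70, −0.75 to −0.64), and 6 of its genes were at least 2-fold lower and 0 higher, with a median of −0.47. Among them, *Pecam1* stood at 440 and 511 CPM (0.22, −0.16 to 0.61) and *Cdh5*, the VE-cadherin gene, stood at 698 and 646 CPM (−0.11, −0.42 to 0.20).

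**Figure D5:**
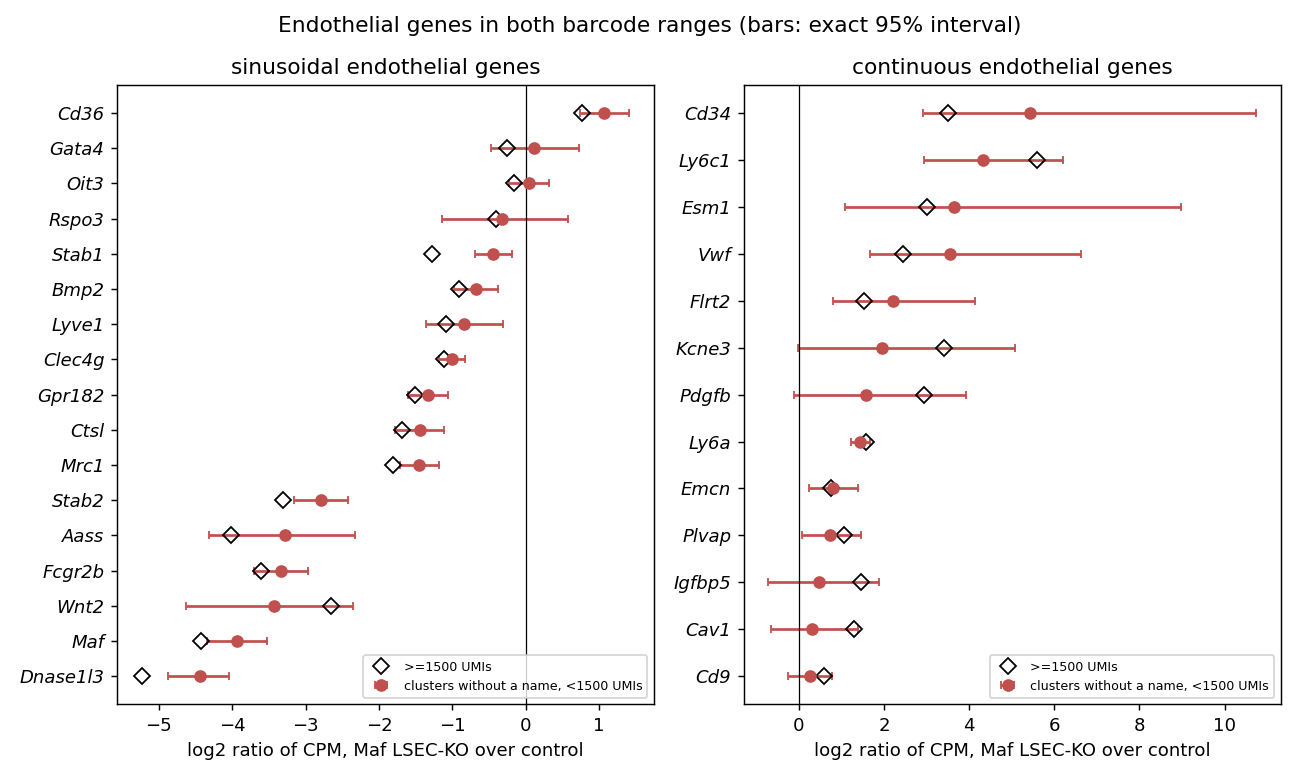
Log2 ratio of CPM, Maf LSEC-KO over control, for each sinusoidal (left) and continuous (right) endothelial gene of at least 50 CPM in either library, in the clusters without a name (filled circles, exact 95% intervals) and in barcodes of at least 1500 UMIs (open diamonds). The circles run from −4.44 for *Dnase1l3* to 1.07 for *Cd36* on the left and from 0.25 for *Cd9* to 5.43 for *Cd34* on the right.

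Immediate early and heat shock genes, which respond within minutes to stress such as tissue digestion, stood at 1056 CPM in control and 4036 CPM in Maf LSEC-KO low-mt barcodes (log2 ratio 1.93, 1.71 to 2.17). Of the 10 genes, 9 were at least 2-fold higher, with a median of 2.03. The transcription factor gene *Fos* had 11 and 258 UMIs (2.58, 1.72 to 3.60), against a ratio of 1.32 (1.27 to 1.36) in barcodes of at least 1500 UMIs. The chaperone gene *Hspa1a* had 24 and 385 UMIs (2.04, 1.44 to 2.70), against 1.66 (1.62 to 1.71). Proliferation genes stood at 616 and 1555 CPM (1.34, 1.04 to 1.65), and 7 of 8 measured genes were at least 2-fold higher. *Mki67*, which marks cycling cells, had 8 and 89 UMIs, and *Top2a*, a topoisomerase of dividing cells, had 4 and 80.

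Macrophage RNA was more abundant in the clusters without a name of the Maf LSEC-KO library, where the macrophage list stood at 2626 CPM (2484 to 2774), than in its barcodes of at least 1500 UMIs (1194 CPM, 1186 to 1202) or in the control clusters without a name (561 CPM, 442 to 702). All 9 measured macrophage genes were at least 2-fold higher in the Maf LSEC-KO than in the control clusters without a name, 2 of them with no control UMI. Those 2 pass 2-fold by the CPM minimum and the limit set for a count of 0. Of all 5009 genes counted there, 13.5% were higher. A *C1qa* UMI at 500 UMIs was found in 15.8% (13.5 to 18.4) of Maf LSEC-KO cluster 1 barcodes, 7.41% (2.06 to 17.9) of platelet-like and 88.2% (79.4 to 94.2) of macrophage-like ones, and in 2.67% (0.731 to 6.69) of control cluster 2 barcodes. The part of free RNA in these levels was not tested.

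Several lists of other cell types were higher in the Maf LSEC-KO library, also in the clusters without a name. Of 7 measured platelet genes 6 were at least 2-fold higher in Maf LSEC-KO low-mt barcodes (list log2 ratio 1.72, 1.42 to 2.04), of 4 measured neutrophil genes 4 (3.92, 3.35 to 4.55), and of 8 measured hepatocyte genes 6 (1.15, 0.91 to 1.40). Of 11 macrophage genes 2, *Adgre1* and *Marco*, were. Of all 4895 genes counted in low-mt barcodes, 10.3% were at least 2-fold higher. The neutrophil list held only 25 control UMIs, of which 14 were *S100a9* and 6 were *S100a8* UMIs. *S100a8* stood at 37.7 CPM in control and 903 CPM in Maf LSEC-KO low-mt barcodes. It passed the CPM minimum only through the Maf LSEC-KO library, so the neutrophil count restates that minimum in part. The ratio of the macrophage list was 0.29 (0.17 to 0.40), but it was −0.0045 as a mean over barcodes and 1.28 with at least 1000 UMIs, so its direction depends on the weighting of barcodes. In the clusters without a name the list ratio was 2.49 (1.81 to 3.26) for neutrophil, 3.16 (2.01 to 4.62) for B cell, 1.15 (0.32 to 2.11) for platelet and 1.02 (0.21 to 1.94) for T and NK cell genes. The hepatocyte list had a ratio of 0.19 (−0.17 to 0.56) there, and none of its 6 measured genes differed by at least 2-fold. The B cell UMIs were unevenly spread. Of 193 Maf LSEC-KO B cell UMIs in the clusters without a name, 110 lay in the 18 barcodes of cluster 2, up to 41 in 1 barcode. With a control count of 0 set to 3 UMIs, the largest ratios in all low-mt barcodes belonged to *Fcor*, *Cd34*, *S100a8* and *Pcp4l1*. *Fcor* had 0 control and 495 Maf LSEC-KO UMIs (42.2-fold by that setting), and *Pcp4l1* had 0 and 258 (22.0-fold). The exact lower limits of their log2 ratios were 5.09 and 4.15. The smallest ratios belonged to *Mapt* with 8 and 1 UMIs, *Col13a1* with 36 and 5, *Dnase1l3*, and *Slc39a8*, a zinc and manganese transporter, with 34 and 6.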

How the data were processed

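Both libraries were measured by 3′ single-cell RNA-seq on the 10x Genomics platform. Alignment to mm10 and UMI counting were done by the authors with Cell Ranger 6.0.2, and the deposited counts are whole UMI numbers per gene and barcode for 32285 genes. Seurat 5.0.1 is also named in the submitters' processing notes. The lowest total of a deposited barcode was 500 UMIs. The subtraction of empty droplets described by the study could not be repeated without barcodes below that total. The members and gene lists were chosen with earlier results of these data known.

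Barcodes were clustered together from 2000 variable genes without mitochondrial and 91 ribosomal protein genes, with 20 principal components, 15 neighbours and the Leiden method at a resolution of 0.5 (leidenalg 0.10.2, Python 3.11.15, scikit-learn 1.9.0). Leading genes were ranked by (CPM + 20) in the cluster over (CPM + 20) in the other low-mt barcodes, among genes of at least 5 UMIs. The marker rule per barcode gave the class whose list had most genes detected, at least 3, with no class for ties. Intervals came from scipy 1.17.1, exact Poisson or conditional binomial for sums and ratios and Clopper-Pearson for shares. A count of 0 was set to a limit of 3 counts over the library. Named genes were the members of 14 cell type lists and 7 gene groups, and for all low-mt barcodes and for the clusters without a name the 10 genes with the largest and smallest ratios, of which a few are given. No cluster was named endothelial-like, so the clusters without a name took the place of that class. Gene positions are from GENCODE M21. The computations were tested on simulated data. Control barcodes numbered 5664 with 47681895 UMIs and Maf LSEC-KO barcodes 7091 with 89872764 UMIs, and the small sums per cluster set the width of the intervals. Alternatives covered the mitochondrial and UMI limits, clustering, scaling and the CPM minimum. Those restricted to at least 1000 UMIs were chosen after seeing the data.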

Additional observations from a re-analysis of the deposited data

Results flagged for a closer look

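For 3 lists the log2 ratio, Maf LSEC-KO over control, had opposite signs in low-mt barcodes and in barcodes of at least 1500 UMIs, with both intervals on 1 side of 0. The difference between the 2 barcode ranges was not tested, as each genotype has 1 library. Hemoglobin genes had a log2 ratio of 1.69 in low-mt barcodes and −1.53 in barcodes of at least 1500 UMIs. Among the latter, 3 control barcodes and 1 Maf LSEC-KO barcode had at least 50% hemoglobin UMIs, and the part of these barcodes in the ratio was not tested. Hepatocyte genes had log2 ratios of 1.15 and −0.06. Nuclear-retained RNAs, *Xist* among them, had log2 ratios of −0.56 and 0.08 from summed UMIs outside mitochondrial and ribosomal protein genes. Without *Xist* and as percent of all UMIs, the median low-mt barcode had the opposite order, 0.169% (control) and 0.551% (Maf LSEC-KO). The 95th percentile was 7.39% and 1.61%. These measures differ in genes and in denominator, and the source of the opposite order was not tested.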

How the results depend on the processing

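Of 132 alternative values, 91 stayed within the counting interval or, for counts of genes, within 1.5 times, 40 moved further and 1 changed sign. The low-mt share of barcodes below 1500 UMIs was 19.6% (control) and 61.1% (Maf LSEC-KO) with a 5% mitochondrial limit and 39.3% and 72.5% with 20%. It was 24.1% and 72.5% from 500 to under 1000 UMIs and 41.4% and 48.3% from 1000 UMIs upwards. Under the 5% limit macrophage-like shares were 7.75% and 6.07%, neutrophil-like barcodes were 0 in the control, and the log2 ratio of the platelet list was 0.99 and of the continuous endothelial list 1.15. With marker rules per barcode the Maf LSEC-KO platelet share was 3.79% and the control hepatocyte share 0. The Maf LSEC-KO neutrophil-like share was 2.18% at a resolution of 1.0 and 2.37% with 10 principal components.

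With at least 1000 UMIs, chosen after seeing the data, the Maf LSEC-KO macrophage-like share was 31.6% and the neutrophil-like share 3.80%, and the control had 0 platelet-like and 0 neutrophil-like barcodes. The log2 ratios were then 2.90 for hemoglobin, 3.58 for platelet, 5.81 for neutrophil, 5.23 for B cell, 1.28 for macrophage, 1.49 for hepatocyte, −1.07 for endothelial and −1.54 for sinusoidal genes, and 821 genes were higher and 933 lower. As a mean over barcodes the macrophage ratio changed sign to −0.0045, and the neutrophil ratio was 3.27. Genes at least 2-fold higher and lower numbered 1210 and 797 with a minimum of 20 CPM and 185 and 261 with 100 CPM, and 1400 and 984 and 242 and 293 in the clusters without a name. The endothelial class by markers per barcode gave 644 and 577.

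The cause of these shifts was not tested. No paired analysis was possible because each genotype has 1 library, which also leaves no replicate to omit. Small sums limit the control, with 197 low-mt barcodes.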
